A study of Caenorhabditis elegans with 11 samples.

Results

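Antimicrobial peptide genes of the epidermis were followed in Caenorhabditis elegans hermaphrodites kept with or without males. The genes were chosen by name, with earlier results of these data known. They were the caenacins cnc-1, cnc-2 and cnc-4, and nlp-27, nlp-28, nlp-29, nlp-30, nlp-31 and nlp-34 of the nlp-29 cluster. Every probe set that the platform's annotation gives to 1 of these genes alone was used. Of the 9 genes listed, 8 had such a probe set, with 1 each, among 17118 genes with one in the whole table; nlp-34 was not analysed here. The probe sets of 7 of the 8 (all but cnc-4) are of the kind that can bind transcripts of related genes, so signal shared between similar peptides cannot be told apart from a gene's own.

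The nlp-29 cluster and the caenacins encode short peptides rich in glycine that worms make in the epidermis, the tissue beneath the cuticle. In this species the nlp-29 gene is switched on by infection with the fungus Drechmeria coniospora, by wounding and by osmotic stress, and the route to it from infection and wounds runs through a p38 MAP kinase cascade in the epidermis. The caenacin cnc-2 is known instead for its dependence on the TGF-beta ligand DBL-1. The peptide NLP-31 has antifungal activity in vitro.

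RNA of whole worms was measured on Affymetrix arrays, 1 per sample. All hermaphrodites had the glp-1(e2141) allele of a Notch receptor needed by germ line stem cells, an allele that makes worms sterile at 25 °C. The labels give an embryo temperature of 15 °C for every sample. The worms were held at 25 °C until day 8. Whether the worms of each sample were sterile was not tested here. There were 3 arrays of glp-1 hermaphrodites alone and 3 of glp-1 hermaphrodites kept with wild-type males. A further 5 arrays came from glp-1 hermaphrodites given utx-1 RNAi, 3 without males and 2 with them. The product of utx-1 is a histone demethylase that removes a repressive methyl mark. Plates held 500 hermaphrodites, or 250 hermaphrodites and 250 males, and RNA came from 200 hermaphrodites after the males were taken off. The number of hermaphrodites on a plate therefore cannot be told apart from the presence of males. The labels name no empty-vector control, so loss of utx-1 and the RNAi procedure itself cannot be told apart. In whole worms, a change of a gene's RNA within the epidermis and a change in the epidermis's share of all RNA cannot be told apart either.

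The utx-1 signal itself was lower under RNAi at both of its probe sets (limma), with log2 changes of -2.47 and -6.55 without males and of -2.15 and -4.18 with males. Under RNAi it was higher with males than without, by 0.32 (adjusted p = 0.0476) and 3.28 (adjusted p = 0.000114). That change minus the one without RNAi was 0.32 (adjusted p = 0.226) and 2.37 (adjusted p = 0.0179). The part of this unequal utx-1 signal in the peptide genes' results was not tested. The 2 arrays of utx-1 RNAi with males stood apart. They correlated with each other at r = 0.995 over all probe sets and with the other arrays at 0.961 to 0.983, while the other 9 arrays correlated among themselves at 0.986 or more. All 17 germ line markers were higher in these 2 arrays than in utx-1 RNAi without males (limma, adjusted p below the threshold of 0.05). Their mean log2 level was 7.55 ± 0.08 (SD, n = 2), against 3.74 ± 0.27 (n = 3) in utx-1 RNAi without males, 3.90 ± 0.25 (n = 3) in glp-1 without males and 4.07 ± 0.20 (n = 3) in glp-1 with males. The part of this difference in the results under utx-1 RNAi was not tested. The comparison of males without RNAi uses neither array in its means. Leaving both out of the fit therefore alters only the estimate of spread, and the same 6 member genes were called.

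With males present and no RNAi, 6 of the 8 peptide genes rose and 0 fell: cnc-1, cnc-2, cnc-4, nlp-29, nlp-30 and nlp-31. Of all probe sets tested, 5.65% were called higher and 6.15% lower in this comparison. The list was chosen with earlier results of these data known, and it leaves out the neighbouring caenacins cnc-3 and cnc-5, which were not called. The fitted log2 changes of the 8 had a median of 0.87, against -0.01 over all probe sets. For 7 of the 8, every array with males lay above every array without, which 14.4% of all probe sets also did. Values below are log2 expression values per array, changes are log2 differences between group means ± standard error from limma, and adjusted p-values are Benjamini-Hochberg values over all 22548 probe sets.

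Among the caenacins, cnc-1 changed most. Its values in glp-1 without males were 4.51, 5.60 and 5.96, and in glp-1 with males 7.04, 7.82 and 7.69. All 3 arrays with males were above all 3 without, and replicate 1 without males was the lowest of the 6. The difference was 2.16 ± 0.38, a fold of 4.46 with a 95% interval of 2.50 to 7.94 (limma, adjusted p = 0.00494). The caenacin cnc-4 read 9.30, 10.00 and 10.21 without males and 10.87, 11.07 and 10.77 with them. Its groups did not overlap, and replicate 1 without males was again the lowest. It rose by 1.07 ± 0.22, or 2.10-fold with an interval of 1.51 to 2.93 (adjusted p = 0.0098). The DBL-1 target cnc-2 read 7.84, 8.31 and 8.55 without males and 9.13, 9.08 and 8.88 with them. Every array with males was above every array without, with a smaller gap than for cnc-1. It rose by 0.79 ± 0.20, or 1.73-fold with an interval of 1.28 to 2.34 (adjusted p = 0.0242). The call of cnc-2 was lost without replicate 1 or 2 of either glp-1 group, with adjusted p-values of 0.0937 and 0.0503 for the groups without males and 0.0687 and 0.0746 for those with males.

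**Figure D1:**
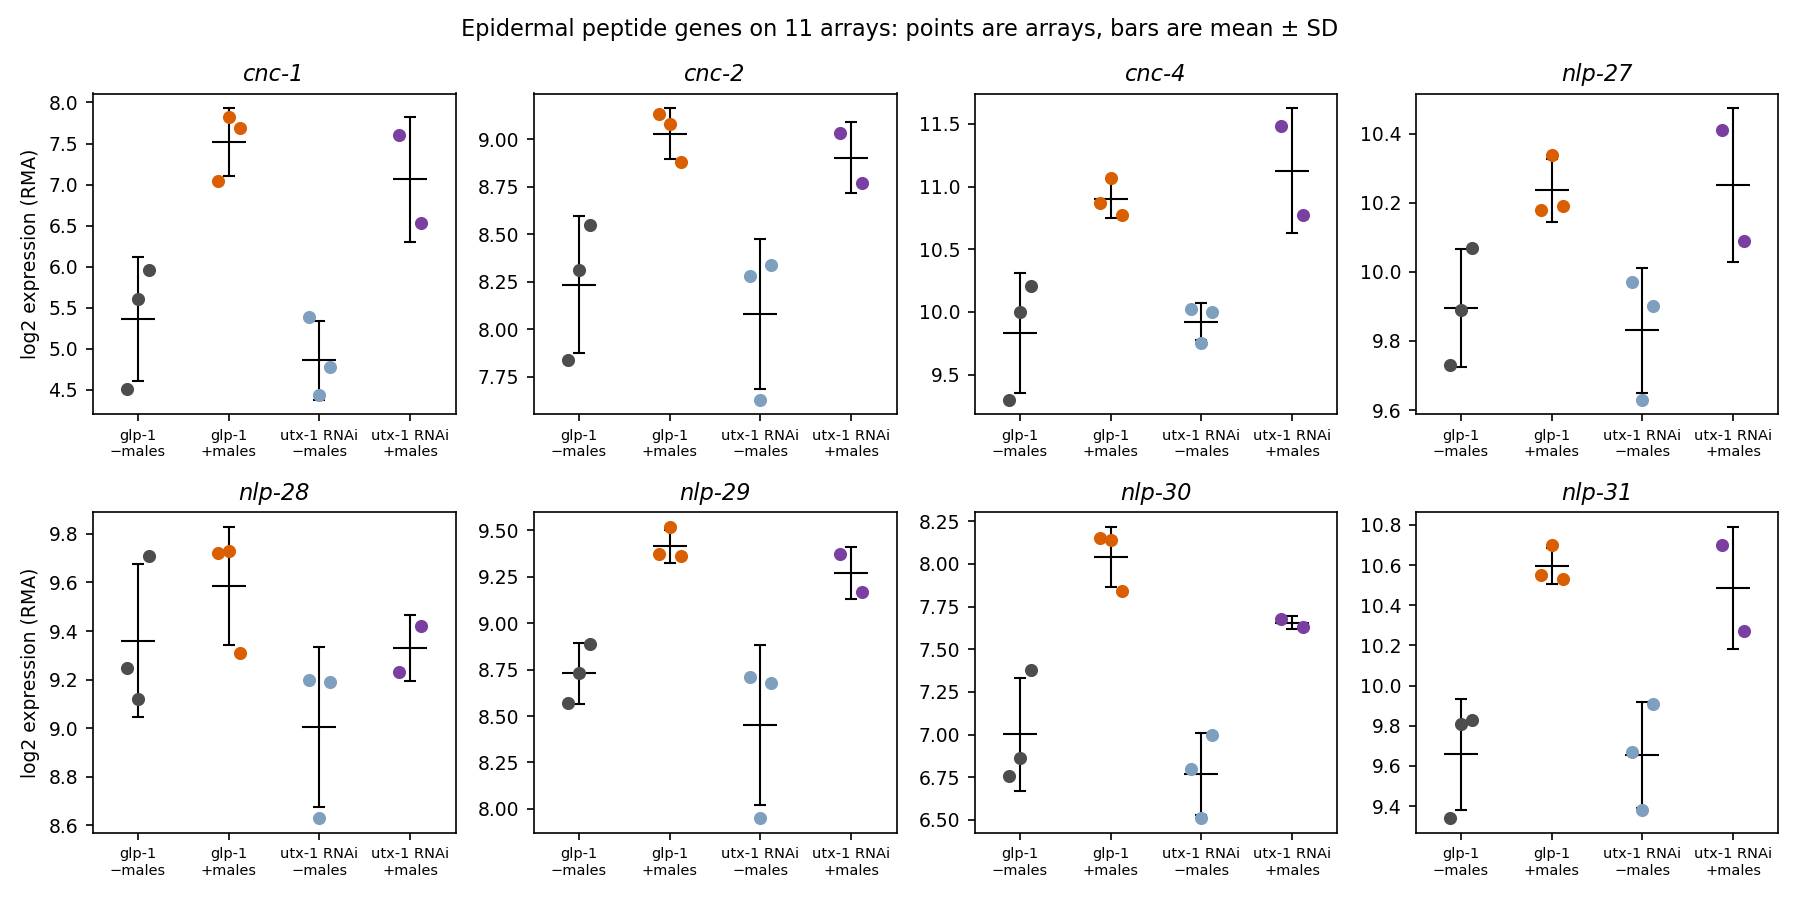
Log2 expression values of the 8 member probe sets in each array (points) by group, with the mean ± SD (bars); each gene has its own vertical axis, in log2 units. For cnc-1, the 3 arrays of glp-1 with males lie between 7.04 and 7.82 and those of glp-1 without males between 4.51 and 5.96. For nlp-28 the groups of glp-1 with and without males overlap.

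In the nlp-29 cluster, nlp-30, nlp-31 and nlp-29 rose and nlp-27 and nlp-28 did not pass the test. The values of nlp-30 were 6.76, 6.86 and 7.38 without males and 8.15, 8.14 and 7.84 with males. The groups did not overlap, and the lowest array with males stood above the highest without. The difference was 1.04 ± 0.16, or 2.06-fold (adjusted p = 0.00266). The antifungal peptide gene nlp-31 read 9.34, 9.81 and 9.83 without males and 10.55, 10.70 and 10.53 with them. The 3 arrays with males lay close together, all above the others. It rose by 0.94 ± 0.16, or 1.92-fold (adjusted p = 0.00441). The infection and wound reporter gene nlp-29 read 8.57, 8.73 and 8.89 without males and 9.37, 9.52 and 9.36 with them. No array of one group reached the other. It rose by 0.68 ± 0.17, or 1.60-fold (adjusted p = 0.0248), a call lost in 5 of the 6 fits that left out 1 glp-1 array, all but replicate 3 without males, with adjusted p from 0.0507 to 0.0966. Over those fits 4 to 6 member genes were called. The calls of cnc-1, cnc-4, nlp-30 and nlp-31 held in all 19 alternatives.

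The other 2 genes of the cluster showed smaller differences. The values of nlp-27 were 9.73, 9.89 and 10.07 without males and 10.18, 10.34 and 10.19 with them. Its groups did not overlap, but the gap was small. The difference of 0.34 ± 0.12 did not pass (adjusted p = 0.0891). For nlp-28 the values were 9.25, 9.12 and 9.71 without males and 9.72, 9.73 and 9.31 with them. Here the groups overlapped, since replicate 3 with males was below replicate 3 without. The difference was 0.23 ± 0.19, with a 95% interval of -0.18 to 0.63 (adjusted p = 0.501).

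Under utx-1 RNAi, 7 of the 8 peptide genes rose with males and 0 fell, where 11.8% of all probe sets were called higher and 9.03% lower. Every array with males was above every array without for 8 of 8, as for 22.1% of all probe sets, with only 2 arrays in the first group. The median change was 0.83, against -0.03 over all probe sets. The values of cnc-1 were 5.38, 4.43 and 4.77 without males and 7.60 and 6.53 with them. The arrays with males were both higher but lay further apart than in glp-1 with males. The rise was 2.20 ± 0.43, or 4.61-fold (adjusted p = 0.00313). For cnc-4 the values were 10.02, 9.75 and 10.00 without males and 11.48 and 10.77 with them. Replicate 1 with males was the highest of all arrays for this gene. The rise was 1.20 ± 0.25 (adjusted p = 0.00436). The values of cnc-2 were 8.28, 7.63 and 8.34 against 9.03 and 8.77, without overlap. The rise was 0.82 ± 0.22 (adjusted p = 0.0209), a call lost when replicate 2 without males was left out (0.59, adjusted p = 0.0523) and with the replicate number as a block (0.77, adjusted p = 0.0555).

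In the nlp-29 cluster under utx-1 RNAi, nlp-30 read 6.80, 6.51 and 7.0 without males and 7.68 and 7.63 with them. Both arrays with males were higher and close to each other. The rise was 0.89 ± 0.18 (adjusted p = 0.0043). The values of nlp-31 were 9.67, 9.38 and 9.91 against 10.70 and 10.27, and the rise was 0.83 ± 0.18 (adjusted p = 0.00637). The values of nlp-29 were 8.71, 7.95 and 8.68 against 9.37 and 9.17, and the rise was 0.82 ± 0.19 (adjusted p = 0.00964). Replicate 2 without males was the lowest of these 5 arrays for both genes. For nlp-27 the values were 9.97, 9.63 and 9.90 against 10.41 and 10.09, and the rise was 0.42 ± 0.13 (adjusted p = 0.0431), a call lost in 10 of 18 alternatives. The values of nlp-28 were 9.20, 8.63 and 9.19 against 9.23 and 9.42, with a difference of 0.32 ± 0.21 that did not pass (adjusted p = 0.317).

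The count fell to 1 of 8 when replicate 1 of the RNAi group with males was left out, a fit with a single array in that group, assumed to vary like the other groups, in which 2028 probe sets were called against 4707. The gene still called was nlp-30, at 0.86 (adjusted p = 0.0431). All 8 differences stayed above 0. They were 1.67 for cnc-1 (adjusted p = 0.0577), 0.85 for cnc-4 (0.0797), 0.72 for nlp-29 (0.104), 0.62 for nlp-31 (0.107) and 0.69 for cnc-2 (0.183). Of the called genes, nlp-27 alone moved by over 1.5 times, to 0.26 (adjusted p = 0.394).

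**Figure D2:**
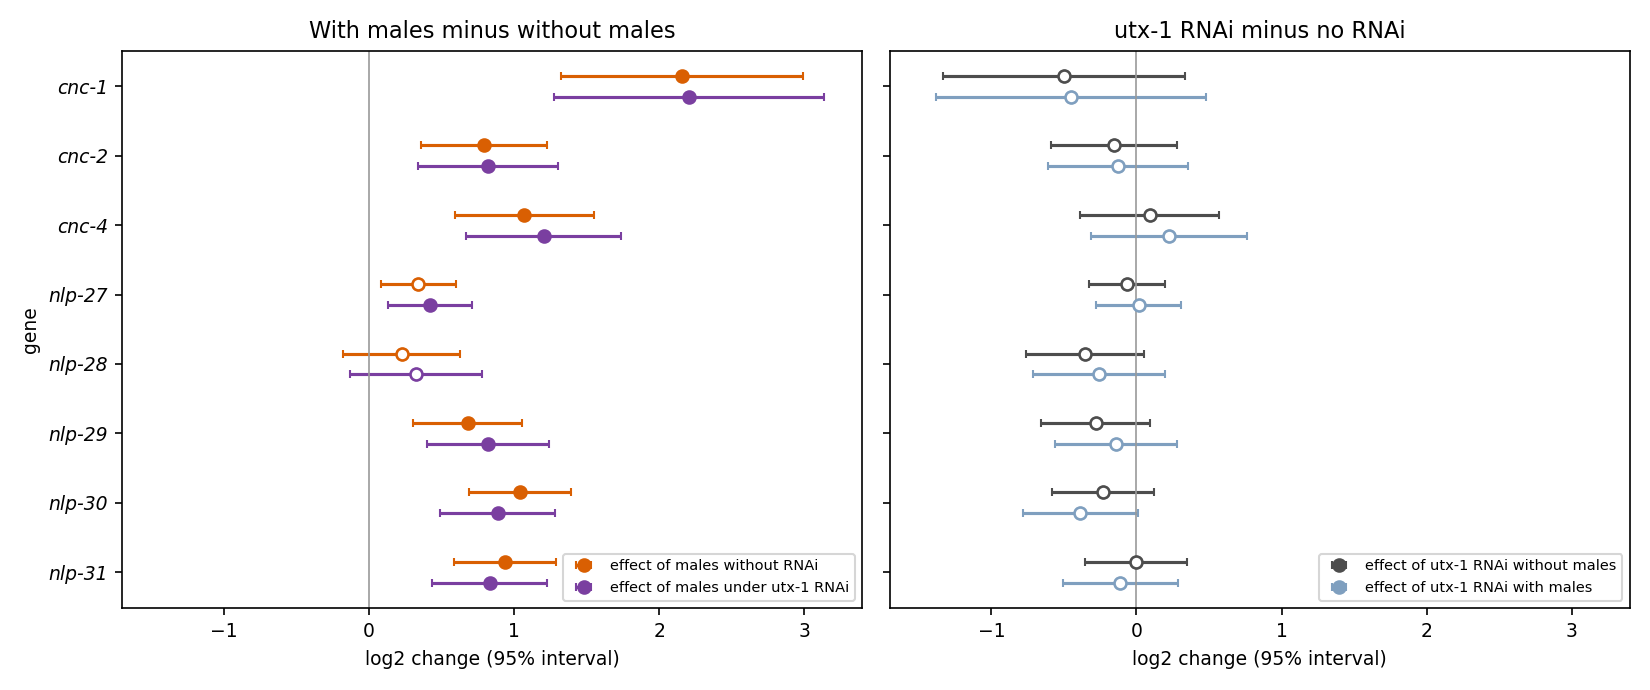
Log2 changes of the 8 member probe sets in the comparisons of males and of utx-1 RNAi (points, filled where the test was passed) with 95% intervals from limma (bars). With males cnc-1 stands at 2.16 without RNAi and 2.20 under utx-1 RNAi, while the intervals for utx-1 RNAi itself include 0 for each gene.

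Treatment with utx-1 RNAi changed none of the peptide genes past the threshold. Without males, 0 of 8 were called by limma and 0 had an unadjusted p under 0.05, where 0.164% of all probe sets were called in either direction. The differences ran from -0.50 for cnc-1 to 0.09 for cnc-4, with adjusted p from 0.357 to 0.993. They were below 0 for 7 of the 8, with a median of -0.19 against -0.03 over all probe sets. With males, 0 of 8 were called and 0 had an unadjusted p under 0.05, where 14% of all probe sets were called. Here 6 of the 8 differences were below 0, with a median of -0.13 against -0.06 over all probe sets. The gene nearest to the threshold was nlp-30, at -0.39 ± 0.18 (adjusted p = 0.185), and its arrays of 7.68 and 7.63 were both below the 3 of glp-1 with males, as 27.6% of all probe sets were. The intervals still allow sizeable differences, from -1.38 to 0.48 for cnc-1 with males and from -0.28 to 0.31 for nlp-27.

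Whether the change with males differed between worms given utx-1 RNAi and worms without it was tested directly as an interaction, the first change minus the second. Of the 8 genes 0 were called and 0 had an unadjusted p under 0.05, where 7.65% of all probe sets were called. The differences ran from -0.16 for nlp-30 to 0.14 for nlp-29, with adjusted p from 0.789 to 0.977. The 95% interval was widest for cnc-1, from -1.20 to 1.30, and narrowest for nlp-27, from -0.31 to 0.47. A p that misses the threshold does not show that males had an equal effect in both backgrounds.

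The 8 genes varied together over the arrays. Pearson's r over the 11 arrays was above 0 for all 28 pairs of members, from 0.485 to 0.969 with a median of 0.932. The lowest value was between cnc-4 and nlp-28. With the group means removed, r was still above 0 for all 28 pairs, from 0.273 to 0.900 with a median of 0.756. Replicate 1 of glp-1 without males was below its group mean for 8 of 8 genes and replicate 3 above it for 8 of 8. Replicate 2 of utx-1 RNAi without males was below its group mean for 8 of 8. The points share arrays, and 7 of the probe sets can share transcripts, so these correlations are descriptions. The share of all probe sets that deviated alike was not computed. A deviation of a whole array therefore cannot be told apart from one of these genes.

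Both sets of genes lie on chromosome V, in the gene order of the RefSeq assembly WBcel235. The genes cnc-1, cnc-5, cnc-4, cnc-3 and cnc-2 are next to each other there, as are nlp-34, nlp-31, nlp-30, nlp-29, nlp-28 and nlp-27. Inside the caenacin run, cnc-3 differed by -0.03 ± 0.12 with males without RNAi (adjusted p = 0.91) and cnc-5 by 0.59 ± 0.19 (adjusted p = 0.0719), beside the called cnc-1, cnc-4 and cnc-2. The probe set of cnc-3 is also of the kind that can bind transcripts of related genes. Among the 8 protein-coding genes with a probe set that flank the caenacins (up to 5 on each side), 0 rose and 2 fell, ges-1 (-0.86), an intestinal esterase whose call was lost in 3 of 19 alternatives, and hacd-1 (-1.43). Among the 10 that flank the nlp-29 cluster, 1 rose, cyp-34A10 (0.57), and 0 fell. Under utx-1 RNAi 0 of the flanking genes of either cluster rose with males, and 3 fell beside the caenacins and 0 beside the nlp-29 cluster.

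**Figure D3:**
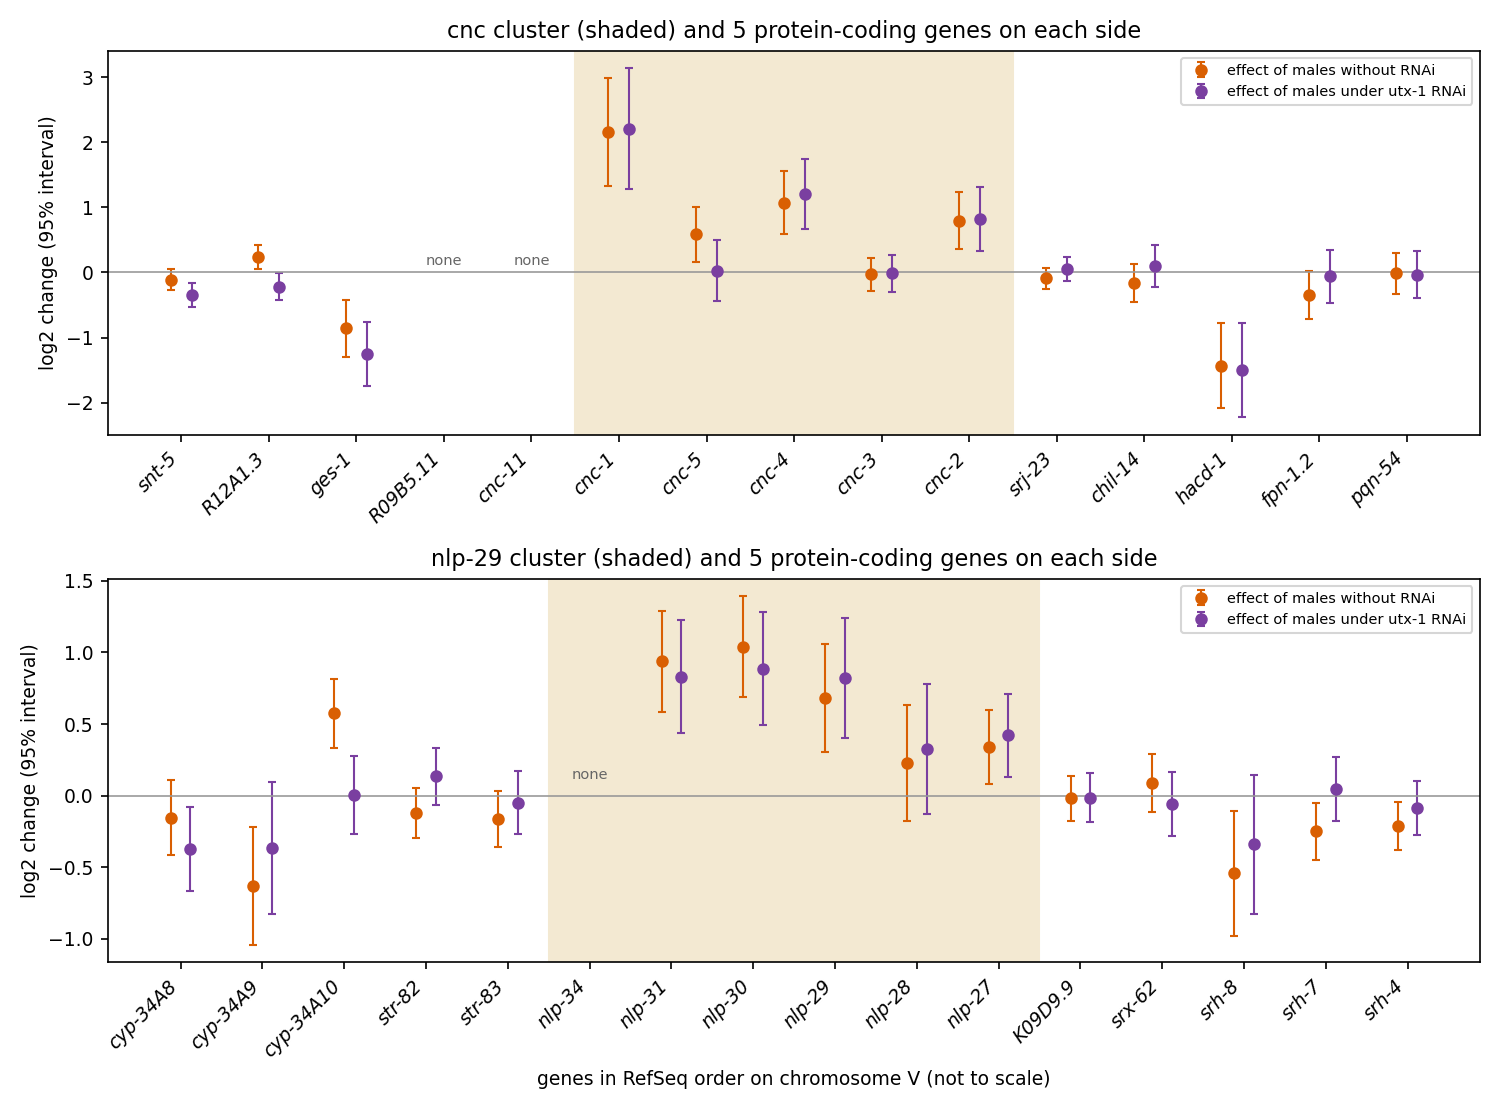
Log2 change with males without RNAi and under utx-1 RNAi for the members and the genes on either side, in gene order along chromosome V (horizontal axis, order only), with 95% intervals as bars; shading marks each cluster, and genes marked none had no probe set used here. The members stand above 0, while cnc-3 at -0.03 lies between cnc-4 and cnc-2.

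Of 5 further caenacins with a probe set, cnc-6 rose with males without RNAi (1.87 ± 0.48, adjusted p = 0.0267), a call lost in 7 of 19 alternatives, and 0 fell. Under utx-1 RNAi cnc-6 differed by 1.27 ± 0.54 (adjusted p = 0.121) and 0 of the 5 were called. Their median change was 0.07 without RNAi and 0.03 under RNAi. Of 5 further peptide genes related to nlp-29, nlp-26 fell without RNAi (-0.56, adjusted p = 0.0353), a call lost in 7 of 18 alternatives, and 0 rose. In the same family nlp-33 differed by 0.82 ± 0.25 without RNAi (adjusted p = 0.0505) and rose by 0.88 ± 0.27 under utx-1 RNAi (adjusted p = 0.0396). That call of nlp-33 was lost in 8 of 18 alternatives, and the difference was 0.53 when replicate 1 with males was left out (adjusted p = 0.389).

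In the epidermal p38 pathway, 3 of 18 genes with a probe set rose with males without RNAi and 1 fell, with a median change of 0.04. The genes that rose were tir-1 (0.94 ± 0.15, adjusted p = 0.00342), the adaptor above the kinase cascade, nipi-3 (0.69 ± 0.15, adjusted p = 0.0121), a Tribbles-like pseudokinase, and vhp-1 (0.44 ± 0.12, adjusted p = 0.0318), a phosphatase that acts against the cascade. The gene that fell was snf-12 (-0.47 ± 0.13, adjusted p = 0.0433), a transporter family member that acts with the STAT-like factor STA-2. Without RNAi the calls of tir-1 and nipi-3 held in all alternatives, and those of vhp-1 and snf-12 were lost in 7 and 11 of them. Under utx-1 RNAi 3 rose, tir-1 (0.70), vhp-1 (0.47) and akir-1 (0.46), and 3 fell, snf-12 (-0.79), elt-3 (-0.72) and sta-2 (-0.30), with a median of -0.06. Of these, akir-1 and snf-12 kept their calls in all alternatives. The call of tir-1 was lost when replicate 1 with males was left out (0.50, adjusted p = 0.17), those of vhp-1 and sta-2 in 5 of 18 alternatives each and that of elt-3 in 3. Under utx-1 RNAi nipi-3 differed by 0.49 (adjusted p = 0.0587). These values are for each gene's brightest probe set. The other probe set of tir-1 rose by 0.86 without RNAi and 0.98 under RNAi, while of the other 2 of nipi-3 one rose by 0.51 and one differed by 0.09 without RNAi (adjusted p = 0.482).

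In the DBL-1 pathway, 0 of 11 genes rose and 2 fell with males without RNAi, with a median of -0.13. They were lon-2 (-0.43 ± 0.07, adjusted p = 0.00318), a glypican that restrains the pathway, and daf-4 (-0.26 ± 0.07, adjusted p = 0.0357), its type II receptor, whose call was lost in 9 of 19 alternatives. Under utx-1 RNAi 0 rose and 3 fell, the Smad genes sma-2 (-0.50) and sma-3 (-0.38), and sma-10 (-0.60), with a median of -0.17. With replicate 1 of the RNAi group with males left out, the differences were -0.37 for sma-2 (adjusted p = 0.161), -0.32 for sma-3 (0.144) and -0.36 for sma-10 (0.235). Genes of furrow collagens and osmotic stress, 13 with a probe set, gave 0 higher and 1 lower without RNAi, dpy-2 (-0.46, adjusted p = 0.0277, lost in 7 of 18 alternatives), and 0 in either direction under RNAi, where 2 had an unadjusted p under 0.05. The medians of this list were 0.06 and -0.01.

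Other antimicrobial families, 12 genes with a probe set, gave 3 higher and 1 lower without RNAi, with a median of 0.16. The genes that rose were fip-5 (1.61 ± 0.23, adjusted p = 0.00188), fip-3 (1.08 ± 0.25, adjusted p = 0.0169) and thn-3 (0.24), a thaumatin-like gene, and the one that fell was abf-1 (-0.46). These calls held in all alternatives for fip-5 and were lost in 3 of 18 for fip-3, 10 of 18 for thn-3 and 6 of 19 for abf-1. The probe sets of fip-5 and fip-3 are also of the kind that can bind transcripts of related genes. Under utx-1 RNAi fip-5 rose (1.46) and abf-1 fell (-0.82), with a median of -0.06. Intestinal immune response genes, 12 with a probe set, gave 2 higher and 3 lower in both comparisons, with medians of -0.36 and -0.33. Here irg-2 (1.37) and irg-1 (1.16) rose and irg-3 (-1.40) and clec-85 (-1.07) fell without RNAi.

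**Figure D4:**
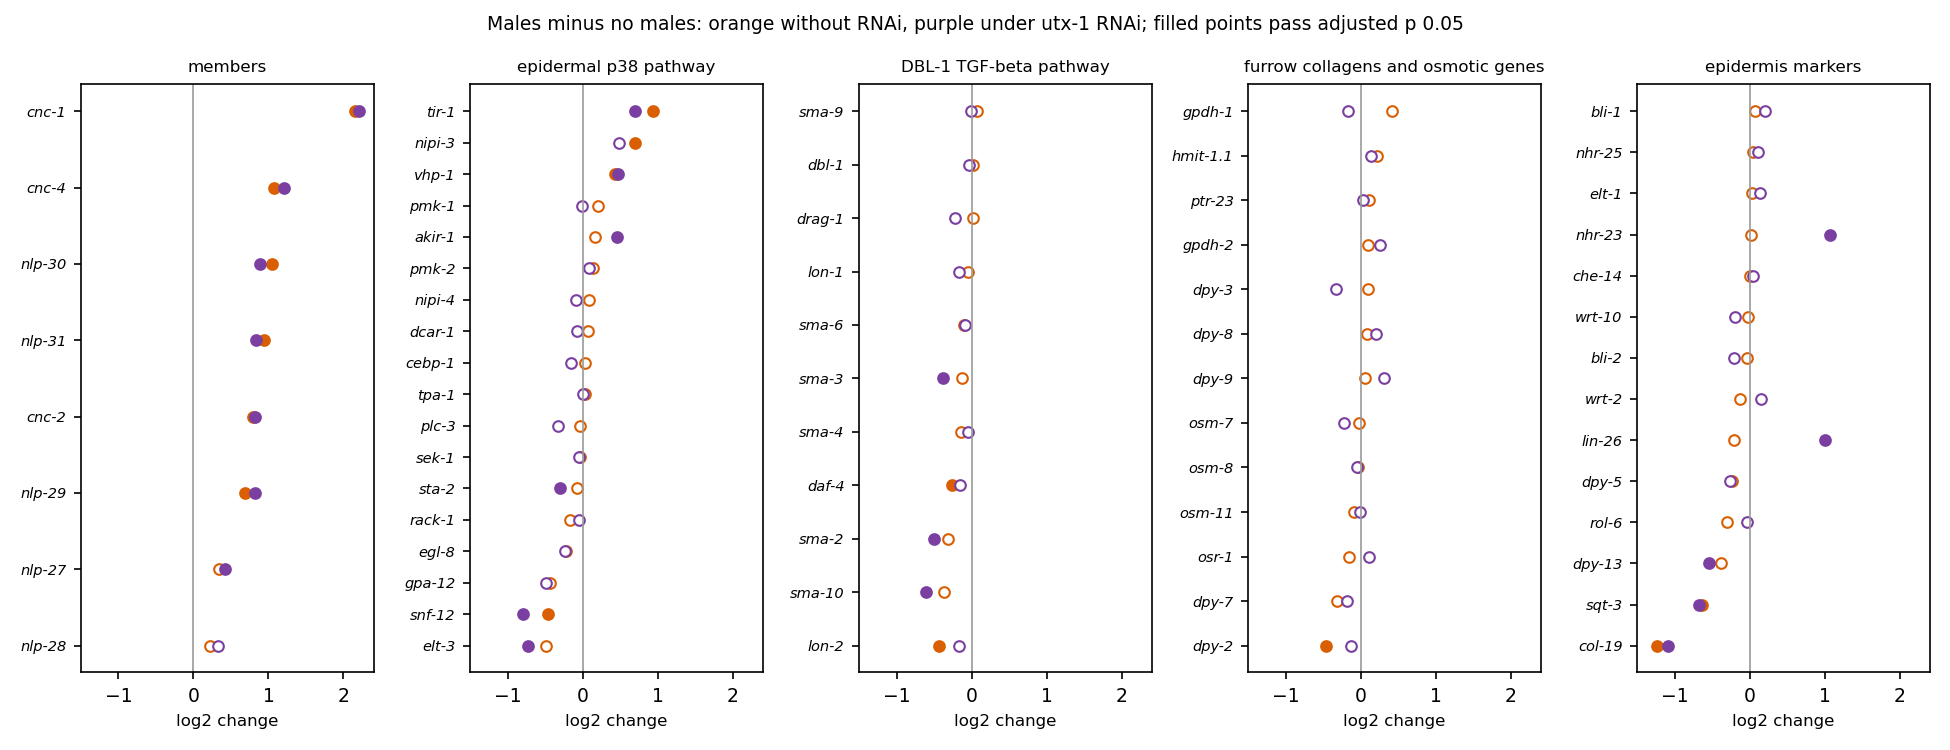
Log2 change with males (horizontal axis) of each gene of the p38, DBL-1, furrow and osmotic, and epidermis lists and of the 8 members, without RNAi (orange) and under utx-1 RNAi (purple); filled points passed the test. The members' median is 0.87 without RNAi, and the medians of the p38 and DBL-1 lists are 0.04 and -0.13.

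Of 14 epidermal markers, 0 rose and 2 fell with males without RNAi, the adult cuticle collagen col-19 (-1.24 ± 0.12, adjusted p = 0.000359) and the collagen sqt-3 (-0.64 ± 0.11, adjusted p = 0.00526). The list's mean level was 4.74 ± 0.02 in glp-1 without males and 4.52 ± 0.05 with them, and 4.59 ± 0.06 and 4.57 ± 0.06 under utx-1 RNAi. Under utx-1 RNAi 2 rose, lin-26 (1.01) and nhr-23 (1.07), and 3 fell, col-19 (-1.09), sqt-3 (-0.67) and dpy-13 (-0.54). Without RNAi lin-26 differed by -0.21 and nhr-23 by 0.02 with males. In the interaction 2 of the 14 markers were called higher by limma and 0 lower. These were lin-26 (1.22, adjusted p = 0.000788) and nhr-23 (1.06, adjusted p = 0.0461). The median of the epidermal list in the interaction was 0.08, and 17 of 17 germ line markers were called higher there. The part of germ line RNA in the values of lin-26 and nhr-23 was not tested. The call of dpy-13 was lost in 2 of 18 alternatives, with a difference of -0.33 when replicate 1 with males was left out (adjusted p = 0.276). Without RNAi, markers of other tissues gave 2 higher and 1 lower of 17 for germ line, 1 and 1 of 12 for muscle, 2 and 2 of 12 for intestine, 0 and 0 of 12 for neurons, of which 2 had an unadjusted p under 0.05, and 1 and 0 of 28 for sperm. The sperm marker mean was 4.22 ± 0.13 without males and 4.50 ± 0.26 with them. Under utx-1 RNAi the counts with males were 17 higher and 0 lower for germ line, 1 and 5 for muscle, 2 and 1 for intestine, 0 and 1 for neurons and 1 and 0 for sperm. The part of these tissues in the peptide genes' changes was not tested.

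The genes whose pattern over the 11 arrays was most like the mean of the 8 centred members were ranked among 2418 genes with an SD of at least 0.3. They were F59A7.2 (r = 0.980), the small heat shock gene hsp-12.3 (0.978), the cell fusion gene eff-1 (0.972), ttr-8 (0.970), K11G9.5 (0.970), fip-5 (0.969), ttr-18 (0.966) and pals-4 (0.965). Since the members' mean is higher with males, a higher level with males in these genes follows from the choice and is not given as a result. Of single members, cnc-4 was closest to tir-1 (0.977) and nlp-31 to ttr-18 (0.983). The gene closest to nlp-28 was dct-7 (0.964). The arrays are shared by all of these correlations, and they are given as descriptions.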

How the data were processed

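The deposited log2 values were made by the authors using RMA, per the submitters' processing notes. Neither its settings nor a genome build is given in the sources used here. The 77 control probe sets were left out of 22625. Values ran from 1.83 to 13.69 and array medians from 3.78 to 3.98; the number of arrays limits the precision. RMA compresses changes of dim probe sets.

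Arrays were grouped by title; the replicate number in the description differs for 2 utx-1 RNAi arrays. All 11 arrays entered a linear model of the group means (limma 3.58.1, R 4.3.3, with 7 residual and 4.84 prior degrees of freedom). Benjamini-Hochberg adjustment ran over 22548 probe sets, with a threshold of 0.05. The males comparisons share no arrays with each other, while each shares arrays with the utx-1 RNAi comparisons. Per the labels, samples of a group came from independent experiments.

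Lists used each gene's brightest probe set, and some of these can bind transcripts of related genes. Genes named were all members, utx-1, up to 4 per list with the smallest p with males or with utx-1 RNAi, the 8 genes most like the members' mean and the 3 most like each member; flanking genes, and those called under utx-1 RNAi outside this rule, were chosen after their values were seen. The members and lists were chosen with earlier results of these data known. The fit was tested on simulated data. Alternatives were a trended and robust prior, a filter on dim probe sets (log2 of at least 5 in 2 arrays), quantile normalization, centred arrays, array weights, only the groups compared, a replicate block, and each array left out; a fit without the pair of arrays from utx-1 RNAi with males was added after seeing the data.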

Additional observations from a re-analysis of the deposited data

How the results depend on the processing

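With males and no RNAi, 4 to 6 of the 8 member genes were called over the fits that left out 1 array, and 6 in every other alternative. Under utx-1 RNAi the count ran from 1 to 7 over such fits, against 7, with 1 where replicate 1 of utx-1 RNAi with males was left out; that alternative leaves 1 array in the group. No member changed sign in either comparison. Leaving out an array of a group not compared keeps a comparison's log2 changes and alters only the estimate of spread.

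Replicate numbers did not pair the arrays: of 15 pairs with the same number, 0 had deviations correlating over 0.1 (-0.352 to 0.051). With the replicate block, 6 members were called without RNAi and 5 under utx-1 RNAi, where cnc-2 and nlp-27 lost their calls, and 1552 probe sets against 2661 in all without RNAi.

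Sign turns occurred in uncalled values only, and their cause was not tested. The utx-1 RNAi effect without males was -0.0072 for cnc-4 with array weights, and 0.0314 and 0.0351 for nlp-31 with quantile normalization and centred arrays. With males, that of nlp-27 was -0.0549 with centred arrays and -0.0015 with the replicate block. The interaction was -0.0087 and -0.0631 for cnc-1 (quantile, centred), -0.0838 and -0.0281 for cnc-2 (centred, replicate block), -0.0302 for nlp-27 and -0.0124 for nlp-28 (centred). The males effect was 0.0186 for cnc-3 without RNAi (array weights), and under utx-1 RNAi -0.0938 and -0.0041 for cnc-5 (centred, array weights), -0.0945 for fip-3 (centred) and -0.06, -0.1167 and -0.0043 for cyp-34A10 (quantile, centred, replicate block). It was -0.1126 for nhr-23 without RNAi (array weights).

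Leaving out 1 array gave, for utx-1 RNAi without males, -0.35 to 0.0741 (cnc-2), -0.18 to 0.28 (cnc-4), -0.15 to 0.0381 (nlp-27), -0.16 to 0.13 (nlp-31). Leaving out 1 array gave, for utx-1 RNAi with males, -0.99 to 0.0830 (cnc-1), -0.26 to 0.0049 (cnc-2), -0.13 to 0.58 (cnc-4), -0.14 to 0.17 (nlp-27), -0.33 to 0.11 (nlp-31). Leaving out 1 array gave, for the interaction, -0.49 to 0.58 (cnc-1), -0.20 to 0.22 (cnc-2), -0.22 to 0.49 (cnc-4), -0.0774 to 0.24 (nlp-27), -0.0915 to 0.22 (nlp-28), -0.11 to 0.27 (nlp-29), -0.32 to 0.11 (nlp-31). Leaving out 1 array gave, for males without RNAi, -0.0887 to 0.0412 (cnc-3), -0.18 to 0.32 (cnc-7), -0.157 to 0.203 (nhr-23). Leaving out 1 array gave, for males under utx-1 RNAi, -0.14 to 0.12 (cnc-3), -0.0776 to 0.18 (cnc-5), -0.46 to 0.13 (cnc-7), -0.0160 to 0.30 (cnc-8), -0.29 to 0.0835 (nlp-26), -0.0922 to 0.15 (fip-3), -0.33 to 0.0818 (dpy-2), -0.0659 to 0.0749 (cyp-34A10).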
